A study of Bos grunniens and Bos grunniens x Bos taurus with 6 samples.

Results

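The insulin-like growth factor IGF1 and 3 of the proteins that bind it, IGFBP3, IGFBP5 and IGFBP6, were followed across the cell classes of the yak and cattle-yak testis. The 4 genes were taken by their symbols from the feature list of the deposited matrices, where each symbol marked 1 of 26961 features (IGF1 ENSBGRG00000000290, IGFBP3 ENSBGRG00000020066, IGFBP5 ENSBGRG00000002228 and IGFBP6 ENSBGRG00000002440). Droplet single-cell RNA sequencing of thawed testis tissue gave 6 libraries. One came from a sexually mature cattle-yak, the hybrid of yak and cattle whose males are sterile. The yak (Bos grunniens) libraries came from prepubertal testis at 6 months (replicates 1 and 2), adolescent testis at 18 months (replicates 3 and 4) and testis after sexual maturity at 4 years (replicate 5). Every tissue piece had been frozen, thawed, digested with collagenase IV, hyaluronidase and trypsin, and held in culture medium before loading. Nothing in the labels ties the replicates to different animals, and p-values cover the spread between these libraries only.

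IGF1 is a secreted growth factor that signals through the receptor IGF1R, and in the testis it acts on Leydig, Sertoli and germ cells. Most secreted IGF is held by binding proteins, which carry it, keep it from the receptor or release it when a protease such as PAPPA or HTRA1 cuts them. IGFBP3 is the main carrier in blood and also binds other cell surface proteins, IGFBP5 attaches to extracellular matrix, and IGFBP6 prefers IGF2 over IGF1.

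The matrices held 40564 cell barcodes with 9575446 to 24762829 UMIs (unique molecular identifiers, each a counted RNA molecule) per library, and 29240 cells passed the filters. Their median depth lay between 1467 and 2074 UMIs by library. Any 2 libraries shared 5 to 16 barcodes. Of the barcodes, 2.30% to 3.56% at 6 months and 14.1% to 38.0% in the other libraries were removed for mitochondrial RNA. Cells were clustered without the 34 measured genes of the IGF pathway list and each cluster was called after the marker list it carried, as stroma-like and so on; 6 clusters with 873 cells carried no clear list and stayed unnamed. Although the labels name germ cells, most of the 6-month cells were stroma-like or Sertoli-like. The cattle-yak library held 688 stroma-like cells, the 6-month libraries 4337 and 2463, the 18-month libraries 1663 and 1226, and the 4-year library 9. DCN, a stromal marker used in the naming, lay between 893 and 1465 CPM (the UMIs of a gene per UMIs of all genes, scaled to a fixed total) in the stroma-like cells of the 5 libraries with more than 50 of them, against 4.06 to 10.5 CPM in Sertoli-like cells. Not all markers of that list were as even. LUM had 69.4 and 41.1 CPM at 6 months, 9.96 and 4.18 CPM at 18 months and 5.65 CPM in the cattle-yak. OGN ran from 196 CPM in 18-month replicate 4 to 2893 CPM in the cattle-yak. Levels below are CPM of the summed UMIs of a class in 1 library and are compared within a gene only, since counts of transcript ends do not rank genes.

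IGF1, the ligand, was highest in the stroma. Over the 5 libraries with enough stroma-like cells its level there was 130 ± 129 CPM (mean ± SD). The next class by mean, the macrophage-like cells, had 9.70 ± 12.3 CPM over 3 libraries, which rests on 2, 0 and 1 UMIs. The ranges did not overlap, and 2 libraries held enough cells of both classes. Mural-like, endothelial-like, spermatogonium-like, lymphocyte-like and Sertoli-like cells followed with means of 5.37 to 0.290 CPM, and each of these classes overlapped with its neighbour in the order. Stroma-like cells held 88.1% of all IGF1 UMIs of the cattle-yak library, although they were 18.9% of its cells. They held 97.3% and 96.0% of the IGF1 UMIs at 6 months and 93.6% and 87.3% at 18 months.

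The cattle-yak set the upper end of IGF1. Its stroma-like cells had 359 CPM (318 UMIs). The 6-month stroma-like cells had 64.2 and 52.0 CPM, and those of 18 months 90.8 and 86.3 CPM. The cattle-yak value thus stood above all 4 young yak libraries, whose values lay close together. After thinning every cell to 1000 UMIs, 30.4% of the cattle-yak stroma-like cells had an IGF1 UMI (exact binomial 95% interval 26.2% to 34.9%), against 6.51% and 5.27% at 6 months and 8.10% and 9.01% at 18 months. Without thinning the share was 32.6% in the cattle-yak, 8.16% in both 6-month libraries, and 11.6% and 9.14% at 18 months. The lymphocyte-like cells, a class with little IGF1, had thinned shares of 0.278% in the cattle-yak, 1.27% and 0% at 6 months and 0% at 18 months. Median depth was 1166 UMIs in the cattle-yak and 1044 to 1453 UMIs in the yak stroma-like cells, and 1453 UMIs in the cattle-yak and 1843 to 2981 UMIs in the 6- and 18-month lymphocyte-like cells. Thinning left out 238 cattle-yak cells, 1251 and 546 cells at 6 months and 465 and 549 cells at 18 months.

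**Figure D1:**
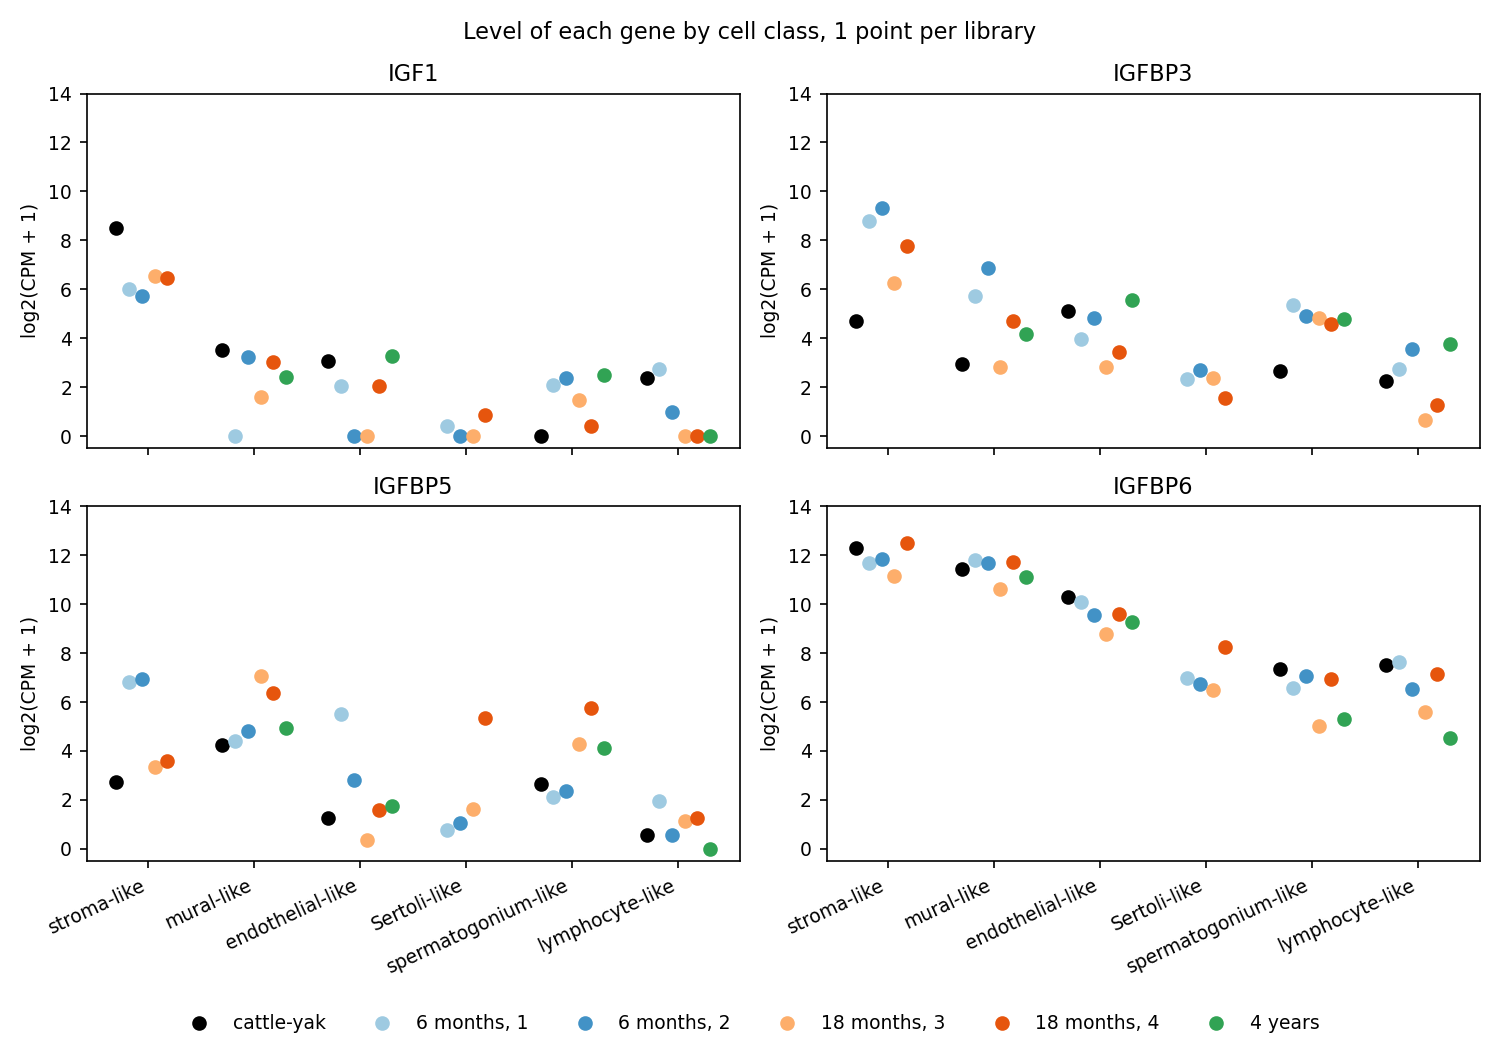
Level of IGF1, IGFBP3, IGFBP5 and IGFBP6 as log2(CPM + 1) in 6 cell classes, 1 point per library with at least 50 cells of the class. IGF1 was highest in stroma-like cells, with the cattle-yak point (359 CPM) on top, while IGFBP6 was high in stroma-like and mural-like cells and lower in endothelial-like cells (825 ± 304 CPM).

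Between ages, IGF1 did not pass the test in the stroma, the only class where it could be tested. The difference of 18 against 6 months was 0.23 ± 0.35 on the log2 scale (edgeR quasi-likelihood test with Benjamini-Hochberg adjustment, adjusted p = 0.790). The TMM scaling of this test lowered all log2 differences by 0.40 in stroma-like cells, 0.30 in spermatogonium-like, 0.15 in lymphocyte-like, 0.10 in endothelial-like and 1.01 in Sertoli-like cells and by 1.03 in whole libraries, so that they are relative to the bulk of the genes. The direction of the IGF1 difference was not fixed, since it was -0.13 without 18-month replicate 4. In whole libraries IGF1 had 13.5 and 9.93 CPM at 18 months, against 24.1 and 16.4 CPM at 6 months. These values did not overlap, and the difference of -1.83 ± 0.38 did not pass the test (edgeR, Benjamini-Hochberg adjusted p = 0.0618). The share of stroma-like cells was also lower at 18 months, at 41.8% and 30.7% of cells, against 58.6% and 43.4% at 6 months, and its part in the whole-library difference was not tested.

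The mature libraries allow no test, having 1 library each. Against the pooled 18-month libraries, IGF1 in stroma-like cells was 4.03-fold higher in the cattle-yak (95% counting interval 3.45 to 4.71), where 6.98% of 9185 genes were past 2-fold higher. All intervals here cover counting error only. The clusters differed between these groups: 627 of the 688 cattle-yak cells lay in cluster 16, and the 18-month cells lay mostly in clusters 2 (replicate 3) and 11 (replicate 4). In cluster 15, which 20 cattle-yak cells shared with the yak, IGF1 was 238 CPM in the cattle-yak (4 UMIs), with 67.6 and 64.7 CPM in the 6-month libraries and 67.4 CPM in 18-month replicate 4. A per-cell gate on at least 3 stroma markers found 505 cells in the cattle-yak and 75 at 4 years, with IGF1 at 333 and 129 CPM. The gated ratio of cattle-yak over 4 years was 2.58 (1.56 to 4.57), where 10.9% of 4222 genes were past 2-fold higher. The gated cells came from different clusters, with 455 of the 505 cattle-yak cells in stroma-like clusters, against 5 of the 75 cells of 4 years, of which 65 lay in unnamed clusters. The gated 4-year ratio to 18 months was 1.57 (0.877 to 2.64), an interval that includes 1, where 39.1% of 7168 genes were past 2-fold in either direction.

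At 4 years most IGF1 lay outside the named stroma. Of its 63 UMIs in that library, 28 were in the unnamed clusters, and all of these in cluster 35, which had 198 cells, all of them from 4 years, led by MYH11, KRT18 and SMOC2 and bearing stroma and mural markers together. IGF1 was 105 CPM there. Another 23 UMIs lay in cluster 28, 283 endothelial-like cells of the same library led by CCL21, MMRN1 and RELN, genes known from lymphatic vessels. IGF1 was 55.4 CPM in cluster 28, and it was 65.1 CPM in the cattle-yak and 113 CPM in 18-month replicate 4 in cluster 43, which was led by CCL21 and MMRN1 too. These last values rest on 8 and 4 UMIs. In the other 5 endothelial-like clusters IGF1 lay between 0 and 9.73 CPM in every library, cattle-yak included. The endothelial-like class as a whole had 8.57 CPM at 4 years, against 0 and 3.16 CPM at 18 months, a pooled ratio of 6.55 (2.86 to 16.8), with 16.5% of 10375 genes past 2-fold higher. With the gate the ratio was 4.29 (0.924 to 21.6), an interval that includes 1. Cluster 28 was 283 of the 1555 endothelial-like cells at 4 years.

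**Figure D2:**
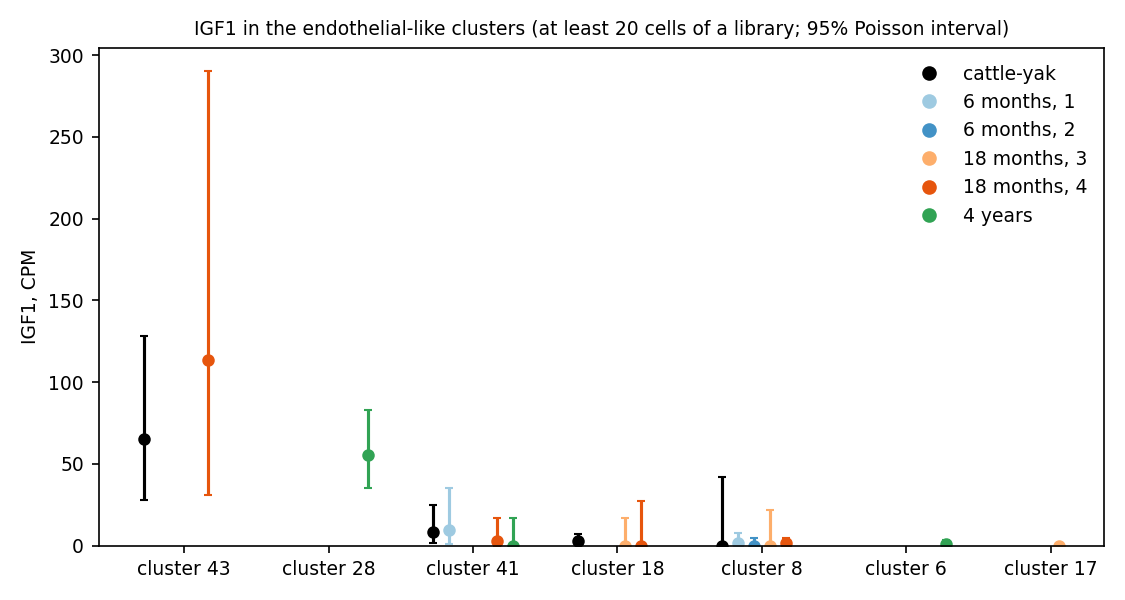
IGF1 level (CPM) in each endothelial-like cluster, 1 point per library with at least 20 cells and its exact Poisson 95% interval. The clusters led by CCL21 and MMRN1 (43 and 28) had 55.4 to 113 CPM, and the other 5 clusters stayed at or below 9.73 CPM.

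IGFBP3, the circulating carrier, was highest in the prepubertal stroma. Stroma-like cells had 75.5 and 216 CPM at 18 months, against 445 and 630 CPM at 6 months, and 24.8 CPM in the cattle-yak. The ages did not overlap, but the 2 libraries of 18 months lay far apart. The difference of -2.14 ± 0.67 on the log2 scale did not pass (edgeR, Benjamini-Hochberg adjusted p = 0.266), and it was -3.62 when 18-month replicate 4 was left out. The thinned share of stroma-like cells with an IGFBP3 UMI was 8.10% and 13.6% at 18 months, against 27.6% and 36.2% at 6 months, while the cattle-yak had 1.33%. In lymphocyte-like cells these were thinned shares of 0% to 1.07% in all 6 libraries. Unthinned, the stroma share was 8.78% and 16.3% at 18 months, against 31.9% and 43.7% at 6 months, with 1.60% in the cattle-yak.

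The lower IGFBP3 of the 18-month stroma also showed inside clusters that held both ages. In cluster 5 it was 97.8 and 263 CPM at 18 months, against 478 and 615 CPM at 6 months. In cluster 3 it was 54.0 and 219 CPM at 18 months, against 244 and 347 CPM at 6 months. Neither cluster showed an overlap between ages, although replicate 3 rests on 7 and 2 UMIs there. IGFBP3 was itself among the 10 leading genes of the stroma clusters 1 and 4, which were mostly of 6 months.

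In whole libraries IGFBP3 fell. It had 25.1 and 30.8 CPM at 18 months, against 168 and 202 CPM at 6 months, with no overlap and little spread within an age. The log2 difference was -3.66 ± 0.54 (edgeR, Benjamini-Hochberg adjusted p = 0.0370), and it was the only 1 of the 4 members called in whole libraries, where 2.58% of 13553 genes were called. The call was lost without 6-month replicate 1 (adjusted p = 0.0652), 6-month replicate 2 (0.145) or 18-month replicate 3 (0.0959), with the difference between -4.27 and -3.18 when any 1 library was left out. The share of stroma-like cells was lower at 18 months, as given for IGF1.

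IGFBP3 also fell in mural-like cells, which carry contractile and pericyte markers. It was 6.11 and 25.1 CPM at 18 months (3 and 7 UMIs), against 52.0 and 115 CPM at 6 months (13 and 55 UMIs), with no overlap. The log2 difference was -2.64 ± 0.65 (edgeR, Benjamini-Hochberg adjusted p = 0.0314), where 1.8% of 3341 genes were called and 0.359% were lower. Stroma-like cells had far more IGFBP3, with means of 146 CPM at 18 months and 537 CPM at 6 months. Mural-like cells also carried stroma markers, at 40.8% to 65.9% of the stroma-like level at these ages. The age change in mural-like cells minus that in stroma-like cells was -0.66 ± 1.08 and did not pass (edgeR interaction term, added after the values had been seen). The part of stroma RNA in the mural-like values was not tested. The clusters differed between ages: 100 and 150 of the 6-month cells lay in cluster 22, led by MGP and RGS5, while 117 and 64 of the 18-month cells lay in cluster 23, led by ACTA2 and TAGLN. In cluster 22 IGFBP3 was 22.4 and 57.5 CPM at 18 months, against 67.0 and 124 CPM at 6 months, and in cluster 23 it was at most 14.1 CPM in each library. Without 6-month replicate 2 the adjusted p was 0.997, and without 18-month replicate 3 it was 0.215.

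At 4 years most IGFBP3 UMIs lay in germ cells, in a library with 9 stroma-like cells. The 75 cells gated as stroma there had a higher level than any germ cell class, at 186 CPM (23 UMIs). The shares of UMIs thus follow the cells captured and do not rank the classes by level. Spermatocyte-like cells, germ cells in meiosis, had 114 CPM and held 596 of the 908 IGFBP3 UMIs of that library, which is 65.6% in 17.6% of its cells. Within them the level differed by cluster, with 189 CPM in cluster 33, 58.0 CPM in cluster 24 and 24.2 CPM in cluster 31. Spermatid-like cells, the haploid stage, had 36.6 CPM, and spermatogonium-like cells 26.8 CPM. These are values of 1 library. The spermatogonium-like class was mixed by the gate. Over all libraries 266 of its cells were gated as spermatocyte and 218 as spermatogonium. Gated spermatocytes gave a ratio of 4 years over 18 months of 3.89 (3.23 to 4.71), where 19.8% of 11961 genes were past 2-fold higher. The gated cells came from different clusters: 486 of the 570 at 4 years lay in spermatocyte-like clusters, against 2 of 153 and 13 of 85 at 18 months, where 151 and 71 lay in spermatogonium-like clusters. Spermatogonium-like cells of the young yak had 27.4 and 23.1 CPM at 18 months, against 39.5 and 28.9 CPM at 6 months, a difference that did not pass (-0.74 ± 0.57 on the log2 scale, edgeR, Benjamini-Hochberg adjusted p = 0.484).

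The cattle-yak had little IGFBP3 in its stroma. Over the pooled 18-month libraries its ratio was 0.194 (0.120 to 0.297), where 23.8% of genes were past 2-fold lower, and over the 75 gated cells of 4 years it was 0.139 (0.0726 to 0.265), where 14.9% were. Endothelial-like cells were the class with most IGFBP3 in the cattle-yak, at 33.2 CPM, against 46.3 CPM at 4 years, a ratio of 0.718 (0.532 to 0.963). At 4 years the endothelial-like value was 6.02-fold (4.29 to 8.58) that of 18 months, where these cells had 6.14 and 9.88 CPM (10.3-fold with the gate, 6.47 to 16.9), while 6-month cells had 14.5 and 27.1 CPM. The 4-year endothelial-like cells lay mainly in cluster 6 (1230 cells, 49.9 CPM), which no other library entered.

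**Figure D3:**
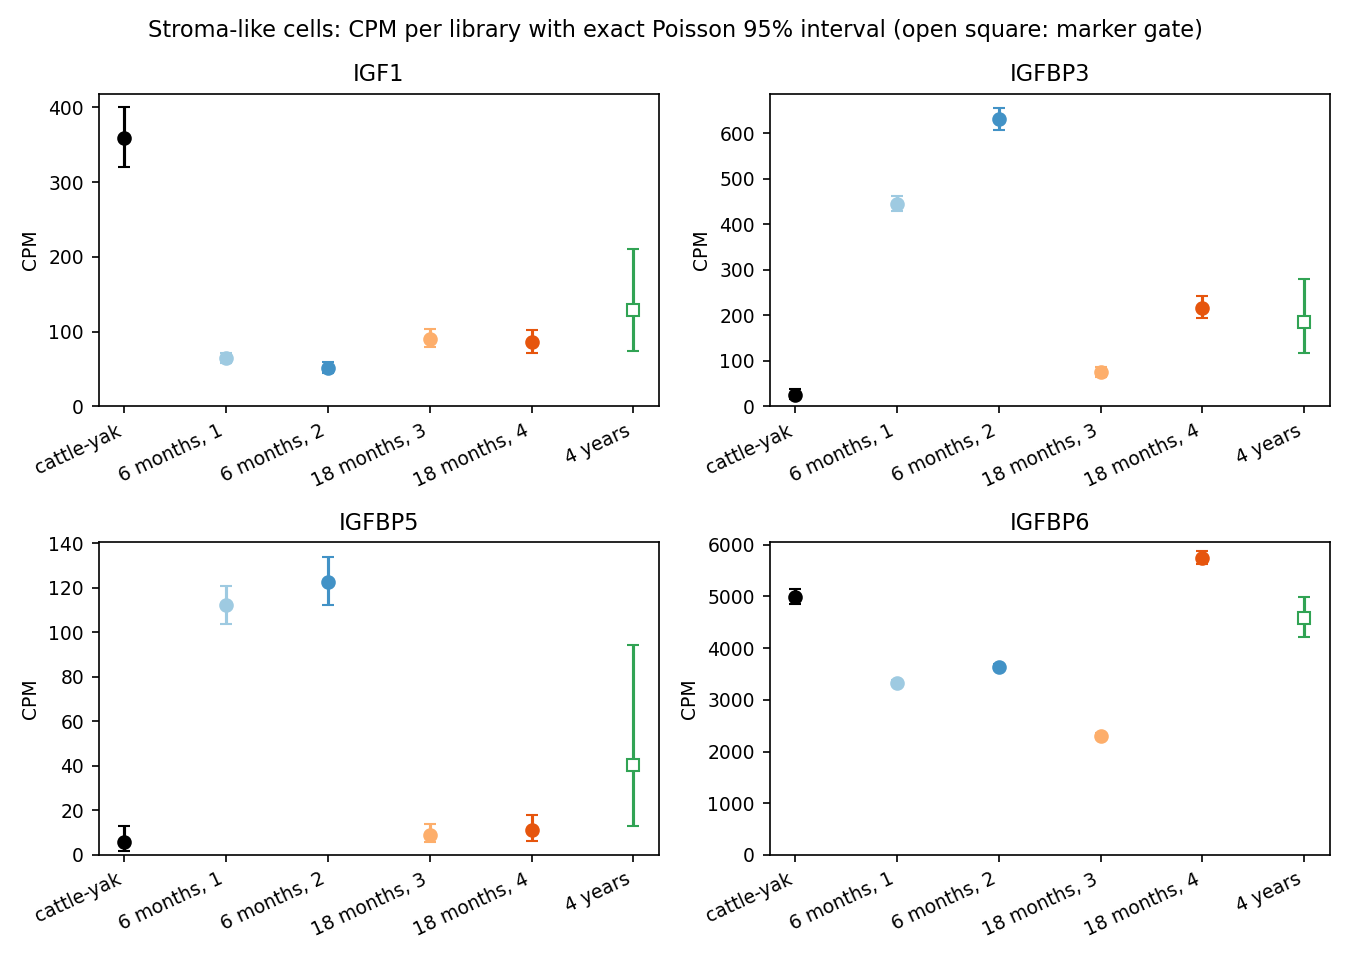
Level (CPM) of the 4 genes in stroma-like cells of each library with its exact Poisson 95% interval; the open square is the marker gate of 75 cells at 4 years. IGF1 was highest in the cattle-yak (359 CPM), IGFBP3 and IGFBP5 were highest at 6 months (445 and 630, and 112 and 123 CPM), and IGFBP6 showed no order by age.

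IGFBP5, the matrix-bound carrier, fell in the stroma between 6 and 18 months. Stroma-like cells had 9.13 and 11.1 CPM at 18 months (22 and 16 UMIs), against 112 and 123 CPM at 6 months (688 and 508 UMIs). Both ages were tight and far apart. The log2 difference was -3.94 ± 0.44 (edgeR, Benjamini-Hochberg adjusted p = 0.00499), where 0.938% of 9271 genes were called and 0.162% were lower. The call held in all 9 alternatives run, with differences of -4.46 to -2.93 and a highest adjusted p of 0.0464. The cattle-yak stroma-like cells had 5.65 CPM (5 UMIs), a ratio to 18 months of 0.572 (0.176 to 1.45), and the 75 gated cells of 4 years had 40.4 CPM, which also rests on 5 UMIs. The gated ratio of 4 years over 18 months was 4.01 (1.17 to 11.1), where 14.3% of 7168 genes were past 2-fold higher. The gated cells came from different clusters. At 4 years 65 of the 75 lay in unnamed clusters, while 844 of 850 and 302 of 315 at 18 months lay in stroma-like clusters.

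The fall was there within clusters too. In cluster 5 IGFBP5 was 0 and 15.8 CPM at 18 months, against 169 and 221 CPM at 6 months. In cluster 3 it was 0 and 16.9 CPM at 18 months, against 83.0 and 112 CPM at 6 months. The 18-month values rest on 0 to 3 UMIs per cluster, while the 6-month libraries had 55 to 148. The thinned share of stroma-like cells with an IGFBP5 UMI was 0.584% and 1.33% at 18 months, against 9.14% and 10.3% at 6 months, with 0.222% in the cattle-yak. The lymphocyte-like cells had 0.0928% in the cattle-yak, 0.633% and 0% at 6 months, and 0.195% and 0% at 18 months, and their counting intervals reached from 0.00235% to 0.516% in the cattle-yak, from 0.00494% to 1.08% in 18-month replicate 3 and from 0% to 1.36% in 18-month replicate 4. The stroma shares of the cattle-yak and of both 18-month libraries lay inside these intervals of the background, and those of both 6-month libraries lay above their own (upper bounds 3.48% and 0.480%). Unthinned, the stroma share was 1.02% and 1.14% at 18 months, against 12.04% and 16.5% at 6 months, with 0.727% in the cattle-yak. Median mitochondrial RNA of the stroma-like cells was 14.6% and 13.8% at 18 months, against 6.53% and 7.21% at 6 months. With cells of at most 10% mitochondrial RNA and at least 500 genes, the difference of IGFBP5 was still called.

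**Figure D4:**
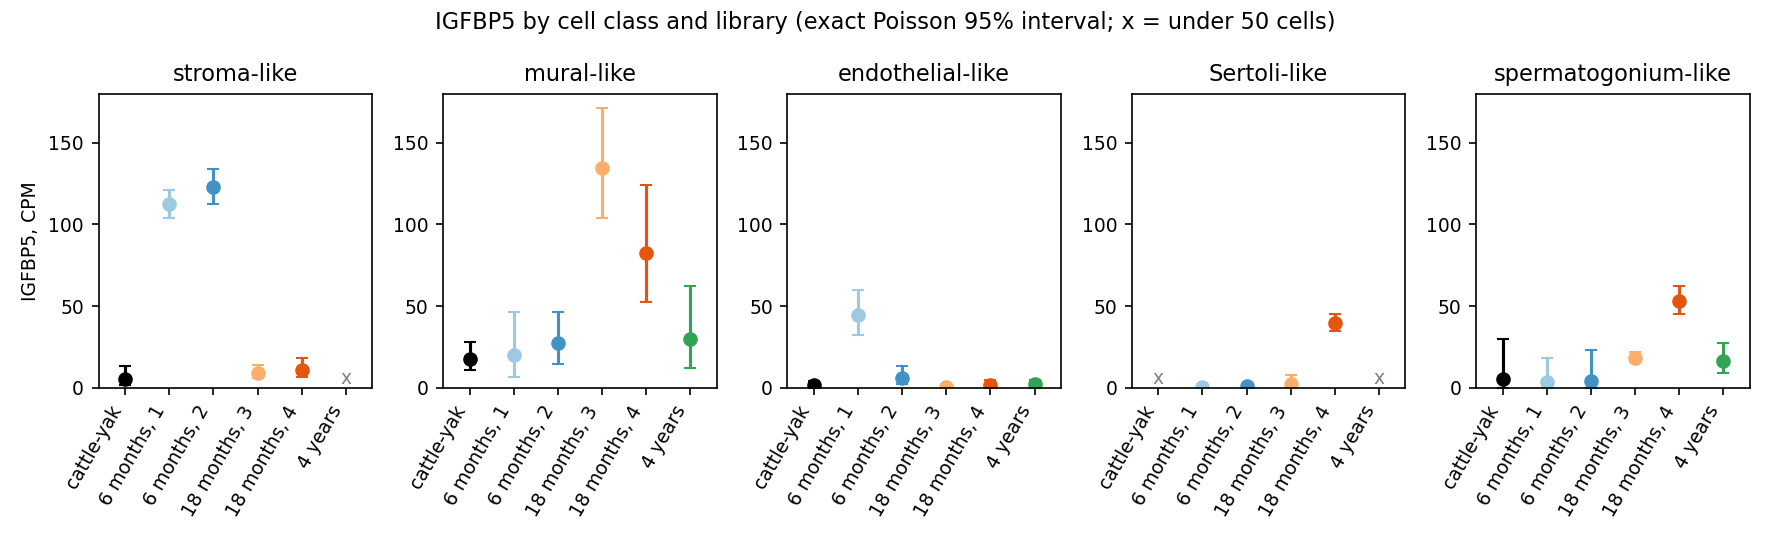
IGFBP5 level (CPM) in 5 cell classes by library, with exact Poisson 95% intervals; x marks a class with under 50 cells. The 6-month libraries were highest in stroma-like cells (112 and 123 CPM), while the 18-month libraries were highest in mural-like cells (134 and 82.5 CPM) and spermatogonium-like cells (18.5 and 53.0 CPM).

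Mural-like cells went the other way. IGFBP5 there was 134 and 82.5 CPM at 18 months (66 and 23 UMIs), against 20.0 and 27.2 CPM at 6 months (5 and 13 UMIs), with 30.1 CPM at 4 years and 17.9 CPM in the cattle-yak. Both 18-month libraries stood above the other 4. The log2 difference of 18 over 6 months was 2.13 ± 0.54 (edgeR, Benjamini-Hochberg adjusted p = 0.0368), where 1.44% of the genes tested in this class were higher. Median mitochondrial RNA of the mural-like cells was 14.3% and 12.3% at 18 months, against 7.53% and 7.32% at 6 months, and its part was not tested. In cluster 23 IGFBP5 was 154 and 108 CPM at 18 months, against 28.2 CPM in 6-month replicate 1 (2 UMIs), and in cluster 22 it was 44.8 and 49.3 CPM at 18 months, against 16.7 and 29.3 CPM at 6 months. The 18-month values lay above the 6-month values in both clusters, with the larger gap in cluster 23, which held more of the 18-month cells. The 6-month values of the clusters rest on no more than the 5 and 13 UMIs of the class. The part of the cluster mix in the class difference was not tested. The call held in 1 of 8 alternatives, without 18-month replicate 4, and the adjusted p reached 0.997 without 6-month replicate 2. After thinning, 11.6% and 6.90% of mural-like cells had an IGFBP5 UMI at 18 months, against 0.943% and 1.30% at 6 months, beside 2.22% at 4 years and 1.61% in the cattle-yak. Unthinned the shares were 29.2% and 11.5% at 18 months, against 3.17% and 6.17% at 6 months, at median depths of 3432.5 and 2253 UMIs at 18 months, against 1785.5 and 2759 UMIs at 6 months. Over the pooled 18-month libraries the 4-year ratio was 0.260 (0.102 to 0.559), where 21.7% of 4191 genes were past 2-fold lower. The 4-year mural-like cells lay in cluster 44, which no other library entered.

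IGFBP5 also rose in spermatogonium-like cells, with 18.5 and 53.0 CPM at 18 months (147 and 156 UMIs), against 3.29 and 4.13 CPM at 6 months, which rest on 1 UMI each. The fitted log2 difference was 3.03 ± 0.90 (edgeR, Benjamini-Hochberg adjusted p = 0.0346), where 2.94% of 8900 genes were called and 1.67% were higher, and its size depends on those single UMIs. Median mitochondrial RNA in this class was 4.70% and 2.21% at 18 months, against 0.160% and 0.158% at 6 months, and its part was not tested. By the gate, 151 and 71 cells of this class were spermatocytes at 18 months, against 11 and 5 at 6 months. Gated spermatogonia were 118 and 63 of its cells at 18 months, against 4 and 2 at 6 months. The part of this mix in the IGFBP5 difference was not tested. Cluster 38, which held 73 and 74 of the 18-month cells and under 20 of any other library, had most of the IGFBP5, at 57.7 and 108 CPM. In cluster 21 the levels were 4.41 and 5.28 CPM at 18 months, against 0 CPM in both 6-month libraries. The call was lost without 6-month replicate 1 (adjusted p = 0.246), 6-month replicate 2 (0.312) or 18-month replicate 3 (0.0549), and without cells under the stricter filter (0.175).

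In Sertoli-like cells, which nurse the germ cells in the tubule, IGFBP5 was high in 1 library. It was 2.0995 and 39.8 CPM at 18 months (2 and 245 UMIs), against 0.695 and 1.08 CPM at 6 months. Only 18-month replicate 4 stood apart. The difference of 3.88 ± 0.99 did not pass (edgeR, Benjamini-Hochberg adjusted p = 0.0606), with 1.79% of 8829 genes called. Replicate 3 had 173 Sertoli-like cells with a median of 1334 UMIs, and replicate 4 had 1040 with 5504.5. Endothelial-like cells showed 0.279 and 1.98 CPM at 18 months, against 44.6 and 6.03 CPM at 6 months, where replicate 1 of 6 months alone was high. That difference of -4.64 ± 0.92 did not pass either (adjusted p = 0.0635), with 0.146% of 7535 genes called. In cluster 8, which held most endothelial-like cells of 6 months and of 18-month replicate 4, IGFBP5 was 5.99 and 2.54 CPM at 18 months, against 50.8 and 5.97 CPM at 6 months. The Sertoli-like cells of the ages lay in different clusters, 0, 7, 29 and 30 at 6 months, 36 in replicate 3 and 13 and 40 in replicate 4. Both differences passed in the 6 alternatives that gave a test (edgeR or DESeq2, Benjamini-Hochberg), but neither could be fitted without the library that stood apart.

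In whole libraries IGFBP5 had 13.9 and 31.4 CPM at 18 months, against 44.7 and 39.2 CPM at 6 months, and the difference of -1.73 ± 0.63 did not pass (edgeR, Benjamini-Hochberg adjusted p = 0.169). Stroma-like cells held 9.17% and 3.56% of the IGFBP5 UMIs at 18 months, against 91.9% and 94.8% at 6 months. The difference between classes was tested directly with an interaction term, an analysis added after the values had been seen. The age change of mural-like cells exceeded that of stroma-like cells by 5.86 ± 0.62 on the log2 scale (edgeR, Benjamini-Hochberg adjusted p = 0.00273), and IGFBP5 was the 1 gene called of 7190, which is 0.0139%. For spermatogonium-like cells the excess was 7.03 ± 0.98 (adjusted p = 0.00217), with 0.475% of 11577 genes called. Sertoli-like cells (7.90 ± 1.30, adjusted p = 0.0970) and endothelial-like cells (-0.77 ± 1.19, adjusted p = 1.00) did not pass, with 0.0444% of 11251 genes and 0 of 9802 (0.0%) called by edgeR, 402 of the second having an unadjusted p under 0.05. Class sums share their libraries. With the library as a block the Sertoli-like term was 7.31 and passed (edgeR, Benjamini-Hochberg adjusted p = 3.2e-18), while the endothelial-like term did not (adjusted p = 0.792). The p-value of the Sertoli-like term leans on a spread shared over genes (prior degrees of freedom 76.7) and does not measure the spread between libraries. Of the 18-month IGFBP5 UMIs in Sertoli-like cells, 245 were in replicate 4 and 2 in replicate 3. The block raised the genes called to 86 for mural-like, 489 for spermatogonium-like, 661 for Sertoli-like and 51 for endothelial-like cells. Stroma markers were present in the mural-like cells, where the summed level of 9 markers was 40.8% and 65.9% of that of the stroma-like cells at 18 months, against 58.3% and 60.6% at 6 months.

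**Figure D5:**
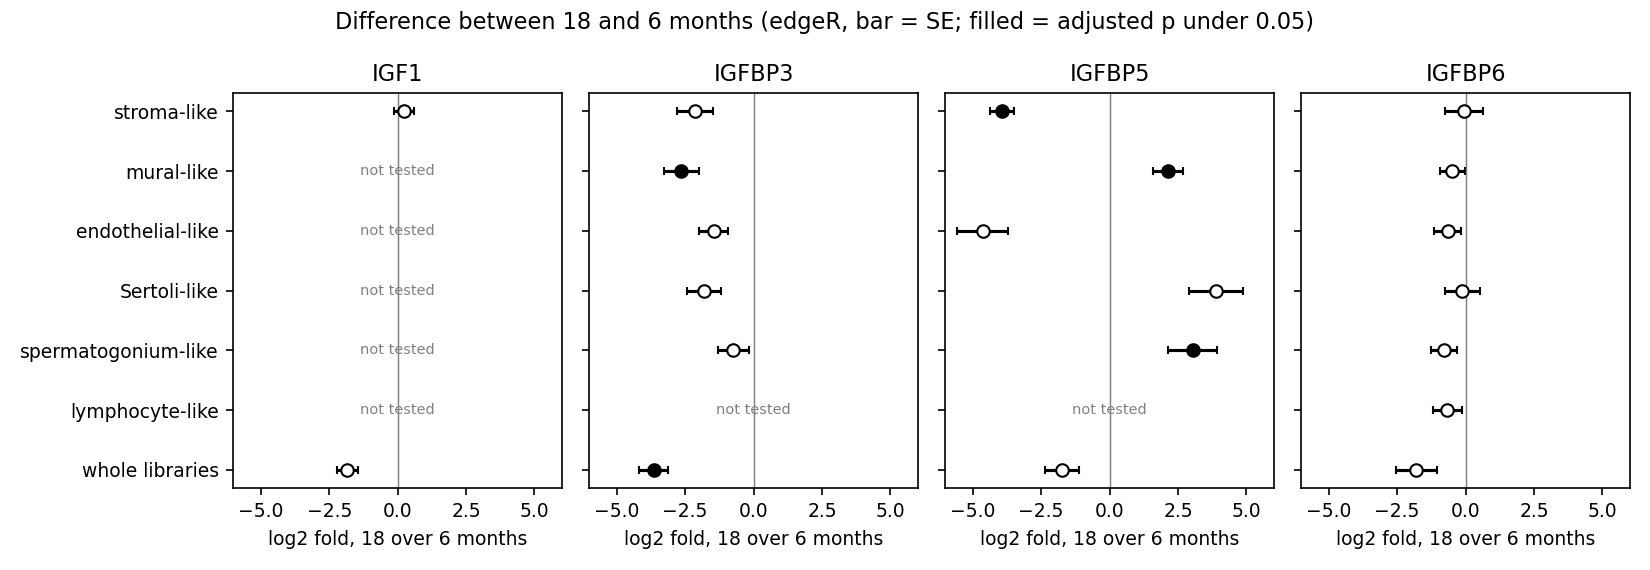
Log2 fold of 18 over 6 months for the 4 genes by cell class and in whole libraries (edgeR; bars are standard errors; filled points have a Benjamini-Hochberg adjusted p under 0.05). IGFBP5 lay at -3.94 in stroma-like cells and at 2.13 in mural-like cells, the 6 tested values of IGFBP3 were below 0, and IGFBP6 had no filled point.

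IGFBP6, the carrier with a preference for IGF2, was spread over stroma-like, mural-like and endothelial-like cells. Its mean level was 4003 ± 1372 CPM in stroma-like cells (SD, 5 libraries), 2813 ± 788 CPM in mural-like cells and 825 ± 304 CPM in endothelial-like cells (6 libraries each). Stroma-like cells lay above mural-like cells in 4 of 5 libraries with overlapping ranges, so that these neighbours do not differ beyond their spread. Mural-like cells lay above endothelial-like cells in 6 of 6 libraries with no overlap. Macrophage-like, Sertoli-like, lymphocyte-like and spermatogonium-like cells had means of 379 to 96.7 CPM.

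IGFBP6 passed the test between ages in none of the 6 classes with all 4 libraries (edgeR). With 1 library left out, its log2 difference was -1.94 to 0.17 in lymphocyte-like and -2.21 to -0.09 in spermatogonium-like cells. It was -1.39 to -0.02 in mural-like and -1.39 to -0.17 in endothelial-like cells. Stroma-like cells had 2298 and 5747 CPM at 18 months, against 3330.0 and 3640 CPM at 6 months, so that the 18-month libraries lay on either side of the younger ones. The difference was -0.05 ± 0.71 (edgeR, Benjamini-Hochberg adjusted p = 0.979), and it turned positive when the TMM scaling was left out (0.21). Mural-like cells had 1578 and 3365 CPM at 18 months, against 3625 and 3328 CPM at 6 months, with overlap. Lymphocyte-like cells, where 0.153% of 5873 genes were called, gave -0.66 for IGFBP6 (adjusted p = 0.997). In whole libraries the values were 481 and 948 CPM at 18 months, against 1410 and 1339 CPM at 6 months (-1.80 ± 0.76, adjusted p = 0.220). The thinned share of stroma-like cells with an IGFBP6 UMI was 81.6% and 94.98% at 18 months, against 91.0% and 92.1% at 6 months, with 94.2% in the cattle-yak, while lymphocyte-like cells had 2.61% to 15.2%. Unthinned, the stroma share was 79.1% and 95.8% at 18 months, against 91.7% and 93.3% at 6 months, with 94.5% in the cattle-yak.

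In the cattle-yak IGFBP6 was 4999 CPM in stroma-like cells, 1.39-fold the pooled 18-month value (1.35 to 1.44), which is within the range of the 2 libraries of 18 months. In endothelial-like cells it was 1259 CPM in the cattle-yak, against 621 CPM at 4 years, a ratio of 2.03 (1.91 to 2.15), with 4.18% of 9110 genes past 2-fold higher. This ratio was 1.88 under the stricter filter and 1.71 with the gate. Other classes also had more IGFBP6 in the cattle-yak than at 4 years. The ratios were 1.24 in mural-like, 3.95 in macrophage-like, 4.16 in spermatogonium-like and 8.25 in lymphocyte-like cells. In gated stroma the ratio was 1.06 (0.969 to 1.16). In whole libraries the ratios of the cattle-yak over 4 years were 10.2 for IGF1 (7.76 to 13.5), 0.225 for IGFBP3, 1.90 for IGFBP5 and 5.35 for IGFBP6, in a background where 50.5% of 13768 genes were past 2-fold. Those libraries had different cells, with 688 stroma-like cells in the cattle-yak and 9 at 4 years, and 47 spermatocyte-like cells in the cattle-yak and 802 at 4 years. For 4 years over 18 months the whole-library ratios were 0.383 for IGF1, 2.37 for IGFBP3, 0.139 for IGFBP5 and 0.389 for IGFBP6, with 49.5% of 15981 genes past 2-fold.

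The unnamed clusters held part of the IGFBP5 of the mature libraries. Of the 45 IGFBP5 UMIs of the cattle-yak, 16 were in them, 11 in cluster 39 (33.0 CPM, led by WFDC2) and 5 in cluster 25 (12.4 CPM, led by DEFB123). Cluster 48, 24 cells of 6-month replicate 1 led by STAR and CYP11A1, genes of steroid synthesis, had 65.2 CPM of IGFBP5 and as much of IGFBP3, on 5 UMIs each, and 0 of IGF1.

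Single stroma-like cells showed several of the 4 transcripts mostly where 1 of them was IGFBP6. After thinning, IGF1 and IGFBP6 were seen together in 30.2% of the cattle-yak cells, where the product of the single shares was 28.7%. IGFBP3 and IGFBP6 were seen together in 6.76% and 12.6% of cells at 18 months, against 25.9% and 34.2% at 6 months. IGFBP3 and IGFBP5 were seen together in 0% and 0.148% of cells at 18 months, against 3.05% and 3.91% at 6 months. The products of the single shares were 0.0473% and 0.181% at 18 months, against 2.52% and 3.71% at 6 months. IGF1 and IGFBP3 shared 0.222% of the cattle-yak cells (1 cell), where the product was 0.406%.

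Of the 40 genes of the IGF pathway list, 34 were measured; the other 6, the ligand IGF2 among them, were not analysed here. In whole libraries 28 of the 34 were tested and 3 passed, against 2.58% of all genes (edgeR, Benjamini-Hochberg): 2 rose, IGFBP2 and IGFBPL1, and IGFBP3 fell. IGFBP2, another secreted carrier, was 28.1 and 8.53 CPM at 18 months, against 1.07 and 1.32 CPM at 6 months (2.75 ± 0.49, adjusted p = 0.0464). IGFBPL1, a relative of the carriers, was 9.83 and 4.90 CPM at 18 months, against 0.596 and 0.439 CPM at 6 months (2.70 ± 0.49, adjusted p = 0.0471). Both were highest in spermatogonium-like cells, at 28.8 ± 15.7 and 20.6 ± 6.01 CPM (SD, 6 libraries), and neither was called within that class. Spermatogonium-like cells were 703 and 558 at 18 months, against 73 and 83 at 6 months. In whole libraries the median log2 difference of the list was -0.45, against -0.04 over all genes tested.

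Within classes few genes of the list passed. In stroma-like cells 1 of 21 tested genes fell, IGFBP5, where 0.938% of all genes were called. The list median there was -0.04, against 0.04 over all genes. In mural-like cells 12 were tested, with IGFBP5 higher and IGFBP3 lower, where 1.8% of all genes were called. None passed in edgeR in endothelial-like (19 tested) and lymphocyte-like cells (11 tested), where 0.146% and 0.153% of all genes were called. In spermatogonium-like cells 2 of 19 rose, IGFBP5 among them, where 2.94% of all genes were called. In Sertoli-like cells 2 of 16 passed, where 1.79% of all genes were called. GRB14, an adaptor that inhibits receptor signalling, was 145 and 218 CPM at 18 months, against 21.1 and 12.5 CPM at 6 months (2.48 ± 0.55, edgeR, Benjamini-Hochberg adjusted p = 0.0488). HTRA1, a protease that cuts IGFBP5, had 0 and 1 UMIs at 18 months, against 18 and 17 UMIs at 6 months (adjusted p = 0.0347). Median mitochondrial RNA in Sertoli-like cells was 10.6% and 9.55% at 18 months, against 0.249% and 0.291% at 6 months, and its part was not tested.

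The receptors were low or broad. IGF1R, the signalling receptor, had its highest mean in spermatogonium-like cells, at 11.7 ± 6.08 CPM (SD, 6 libraries), and spermatocyte-like cells of 4 years had 27.7 CPM. In stroma-like cells IGF1R had 1.13 CPM in the cattle-yak (1 UMI), with 6.68 and 5.81 CPM in the 6-month libraries and 9.96 and 6.26 CPM in those of 18 months. IGF2R, which clears IGF2, was highest in endothelial-like cells (43.3 ± 15.5 CPM, 6 libraries), and INSR, the insulin receptor, in stroma-like cells (10.5 ± 6.73 CPM, 5 libraries). None of the 3 was called between ages in any class in edgeR. In spermatogonium-like cells IGF2R had 47.0 and 15.0 CPM at 18 months, against 6.58 CPM (2 UMIs) and 0 CPM at 6 months (Benjamini-Hochberg adjusted p = 0.0694).

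The genes most like each member over the 38 library-by-class sums with at least 50 cells were named by Pearson correlation of log2(CPM + 10), as a description. IGF1 was most like PDGFRA, a receptor used here as a stroma marker (r = 0.940), then CPXM1 (0.918), SPON1 (0.911), NID1 (0.906) and COL28A1 (0.899). IGFBP6 was most like MGP (0.922), DBP (0.919), PDGFRB (0.914), ECM2 (0.906) and EBF1 (0.903). IGFBP3 came nearest to DPT (0.790), OLFML3 (0.741), TWIST1 (0.711), PI15 (0.704) and CSMD3 (0.700). IGFBP5 came nearest to GNAI1 (0.731), GRB14 (0.706), PMP22 (0.701), RND3 (0.683) and PGM5 (0.679). The members correlated with each other at 0.234 (IGF1 and IGFBP5) to 0.632 (IGF1 and IGFBP6). Sums of 1 library share its depth and free RNA, and sums of 1 class share their cell type.

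In the RefSeq annotation of the yak assembly Bosgru_T2T1.0, matched by symbol, IGFBP3 lies between IGFBP1 and TNS3, and IGFBP5 lies between TNP1 and IGFBP2. IGFBP6 lies between SOAT2 and SPRYD3. IGFBP1 had no more than 1 UMI in the kept cells of any library, and IGFBP2 had the levels given above.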

How the data were processed

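Per the labels' protocols, cells of thawed testis were sequenced on the 10x Genomics platform; the deposited values are raw UMI counts per gene and barcode. The file headers give Cell Ranger 5.0.0 and the submitters' processing notes 2.1.1 (genome build: not given in the sources used here). Barcodes under 300 genes or over 20% mitochondrial UMIs were left out, and doublets were removed by Scrublet score at 0.8% per 1000 barcodes, since its own threshold marked 0 or 1 cells in 4 libraries. Cells were clustered with scanpy 1.11.5 and leidenalg 0.10.2 (2000 variable genes, 30 components, resolution 2) without the IGF pathway genes, and clusters were named by marker lists; the scoring of the lists was adjusted after the first clustering. Raw counts were summed per library and class. Classes with at least 50 cells in each of the 4 libraries of 6 and 18 months were tested with edgeR 4.0.16 (quasi-likelihood, TMM, filterByExpr, Benjamini-Hochberg over all genes tested, threshold 0.05); DESeq2 1.42.0 was an alternative. The other groups have 1 library, so ratios of pooled CPM with exact counting intervals are given, beside the percent of all genes past 2-fold with at least 20 summed counts. The gate asked for 3 markers of 1 class in a cell. The tests were checked on simulated data with known changes. They recovered 0.6% (Sertoli-like) to 7.8% (stroma-like) of 2-fold changes and 17.4% to 61.6% of 4-fold changes in the same classes. A gene that did not pass may therefore still differ. Of the simulated calls, 2.17% to 5.98% were false. The counts of this check were drawn with a spread that follows a smooth trend over genes. The share of false calls among the calls of the real data was not tested. Genes named are the 4 members, pathway genes that passed or are ligands or receptors, and the 5 genes most like each member; some results of this rule are not reported here. Members and lists were chosen with earlier results of these data known. Libraries of 2 against 2 cannot reach p = 0.05 in an exact permutation test (smallest two-sided p = 0.333).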

Additional observations from a re-analysis of the deposited data

Results flagged for a closer look

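The age change of IGFBP5 differed between cell classes. Its log2 difference of 18 against 6 months was 5.861 higher in mural-like than in stroma-like cells and 7.03 higher in spermatogonium-like than in stroma-like cells (edgeR interaction terms, Benjamini-Hochberg adjusted p = 0.00273 and 0.00217). The mural-like term rests on 66 and 23 UMIs at 18 months, against 5 and 13 UMIs at 6 months, and the spermatogonium-like term on 147 and 156 UMIs at 18 months, against 1 UMI in each 6-month library. With the library as a block the terms were 5.96 and 6.77.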

How the results depend on the processing

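No paired analysis was possible because the 6- and 18-month groups share no replicate number, and the 6-month and cattle-yak groups share 1. The fall of IGFBP5 in stroma-like cells was called in all 9 alternatives; its other calls and those of IGFBP3 were not. IGFBP5 in mural-like cells was 2.20 without TMM scaling, 2.01 with DESeq2, 1.97 without a filter and 2.01 with the marker gate, none called, and 1.77 to 2.33 with 1 library left out. IGFBP5 in spermatogonium-like cells was 2.76 under the stricter cell filter and 2.94 to 3.63 with 1 library left out, none of these called. IGFBP3 in mural-like cells was -2.58 without TMM, -2.64 with DESeq2 and -2.54 with the gate, none called, and -4.02 to -1.75 with 1 library left out. IGFBP3 in whole libraries was -3.39 with all barcodes (added after seeing the data, not called) and -4.27 to -3.18 with 1 library left out. Members called in whole libraries were 1, against 3 with DESeq2, 3 without a filter, 2 under the stricter filter, 0 with all barcodes and 0 to 4 with 1 library left out. Member calls over the classes were 4, against 1 with the gate, 1 under the stricter filter and 3 to 11 with 1 library left out. The direction turned for values not called with all libraries: IGF1 in stroma-like cells was -0.084 under the stricter filter, -0.019 with the gate and -0.13 to 0.44 with 1 library left out; IGFBP6 was 0.78 and 0.21 without TMM and 0.20 and 0.040 with the gate in Sertoli-like and stroma-like cells, and with 1 library left out -1.58 to 0.60 in Sertoli-like, -1.38 to 0.59 in stroma-like and -1.94 to 0.17 in lymphocyte-like cells, where 1 of 8 alternatives was called. IGF1 in mural-like cells was 10.9 CPM with the gate, against 5.37. Under the stricter filter the whole-library ratios of 4 years over 18 months were 0.640 for IGF1, 4.09 for IGFBP3 and 0.418 for IGFBP6, that of the cattle-yak over 4 years was 6.97 for IGFBP6, and the stroma ratio of the cattle-yak over 18 months was 1.27 for IGFBP6, or 1.44 with the gate. Genes called in whole libraries were 349 (252 higher), against 3052 without TMM (2965 higher), 1231 with DESeq2, 2205 without a filter, 575 under the stricter filter and 142 with all barcodes; in Sertoli-like cells 158 (93 higher), against 1869 (1824 higher) without TMM; in stroma-like cells 87, against 444 without a filter and 51 under the stricter filter; in mural-like cells 60, against 8 without TMM, 25 with DESeq2 and 0 with the gate, where 204 had an unadjusted p under 0.05; in spermatogonium-like cells 262 (149 higher), against 524 (456 higher) without TMM. With 1 library left out they ran from 26 to 1090 in stroma-like, 15 to 875 in spermatogonium-like, 98 to 1067 in Sertoli-like, 29 to 295 in endothelial-like, 16 to 449 in lymphocyte-like and 0 to 513 in mural-like cells (73 genes of the fit with 0 calls had an unadjusted p under 0.05), and from 0 to 2401 in whole libraries, where 2095 and 2278 genes of the fits with 0 calls had an unadjusted p under 0.05. The causes were not tested. Depth limits the ratios on 5 or fewer UMIs and the 6-month spermatogonium-like values.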
